A study of Mus musculus with 6 samples.

Results

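MHC class I molecules display peptides from inside a cell to CD8 T cells and to natural killer (NK) cells, and the genes of this display system were compared between tumours given radiation with an immune checkpoint inhibitor and tumours given the inhibitor alone. The members were the rows of the count table named as mouse class I heavy chain genes of the K, D, Q, T and M regions (H2- followed by the region letter and a number), with B2m, Tap1, Tap2, Tapbp, Tapbpl, Erap1 and Nlrc5. They were 27 of 34665 rows: 2 classical heavy chains (H2-K1 and H2-D1), 18 non-classical heavy chains, and 7 genes of the loading group. The radiation plus inhibitor group (RT_ICI) had 3 libraries, replicates 1, 2 and 4. The inhibitor group (ICI) had 3 libraries, replicates 1, 2 and 3. Both groups were bulk RNA from tumours of B16, a mouse melanoma cell line, with genotype WT, so every library came from an inhibitor-treated tumour and none from an untreated one. The inhibitor's target, the radiation dose, the harvest time, the host strain and age, and the position of the sampled tumour relative to the radiation field are not stated in the labels. Nor is it stated that the libraries came from separate animals, so p-values measure only the spread between these libraries.

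A class I molecule is a heavy chain paired with beta-2 microglobulin, the product of B2m. Proteasomes cut cytosolic proteins, the TAP transporter carries the peptides into the endoplasmic reticulum, Erap1 trims them, and tapasin holds an empty heavy chain at the transporter until a peptide fits. Interferon gamma raises nearly every step, partly through the transactivator Nlrc5. B16 cells are known for low class I at the surface at rest, which interferon gamma can raise.

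Library totals ran from 22543721 to 45624013 counts, and levels below are TMM-scaled counts relative to library size (CPM). The melanoma markers of the tumour line were abundant in every library, at a summed 10071 to 14379 CPM in RT_ICI against 13340 to 15180 CPM in ICI. Mitochondrially encoded genes took 11.5% to 14.7% of counts in RT_ICI and 4.39% to 5.01% in ICI. Summed skeletal muscle markers ranged from 14.3 to 2071 CPM in RT_ICI and from 0.941 to 188 CPM in ICI. The part of these library differences in the results was not tested.

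Both classical genes and several Q region genes hold a promoter element through which interferons act, and the sequences are shown because interferon response is the known route by which these genes are induced. RefSeq promoters (GRCm38.p6, 250 bases before to 50 after the start) were held for 19 of the 27 members. The core of the class I interferon response sequence, TTTCACTTC, searched on both strands, occurred in 7 of the 19: H2-K1, H2-D1, H2-Q4, H2-Q6, H2-Q7, H2-Q10 and H2-M3. It occurred in 0.505% of 32851 promoters in all. The NF-kB core of enhancer A, GGGATTCCC, occurred in 4 members (H2-K1, H2-D1, H2-Q6 and H2-Q7) and in 0.353% of all promoters. Both were searched as known class I elements, and the H2-K, H2-D and H2-Q windows below are much alike. The matches are therefore not independent, and the shares carry no test. Capitals mark both cores, which do not overlap in these windows.
H2-K1 (chr17:34000421-34000477, minus strand): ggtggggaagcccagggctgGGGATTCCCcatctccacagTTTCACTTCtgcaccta
H2-D1 (chr17:35262923-35262952, plus strand): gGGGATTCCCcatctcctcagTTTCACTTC
H2-Q4 (chr17:35379443-35379472, plus strand): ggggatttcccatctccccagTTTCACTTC
H2-Q6 (chr17:35424658-35424714, plus strand): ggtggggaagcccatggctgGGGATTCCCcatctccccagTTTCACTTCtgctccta
H2-Q7 (chr17:35439002-35439058, plus strand): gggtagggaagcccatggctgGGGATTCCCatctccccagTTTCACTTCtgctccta
H2-Q10 (chr17:35469894-35469950, plus strand): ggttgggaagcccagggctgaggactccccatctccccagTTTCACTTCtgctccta
H2-M3 (chr17:37270093-37270149, plus strand): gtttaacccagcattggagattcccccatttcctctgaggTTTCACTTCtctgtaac

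A second interferon element, the core GAAANNGAA of the interferon-stimulated response element, occurred in 4 members on either strand and in 8.56% of all promoters. Its members were B2m, Erap1, H2-T22 and H2-T23, none of which held the class I core. Capitals mark the first copy in each window, read as TTCNNTTTC where it lies on the other strand.
B2m (chr2:122147508-122147564, plus strand): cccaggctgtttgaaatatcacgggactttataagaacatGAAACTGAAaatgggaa
Erap1 (chr13:74639823-74639852, plus strand): cacgtgccctgccggtccaccTTCACTTTC
H2-T22 (chr17:36042924-36042953, minus strand): agagtccctaattggcttagtTTCACTTTC
H2-T23 (chr17:36032816-36032845, minus strand): atgaaaagggatcctactgctTTCTCTTTC
CCAAT, the box bound by NF-Y, occurred in 16 of the 19 promoters against 37.4% of all promoters. TGACG, a core read by CREB and ATF factors, occurred in 9 of the 19 against 20.8% of all. A match describes these letters and not a working site. The members with no promoter entry were H2-K2, H2-Q1, H2-Q5, H2-T10, H2-T24, Nlrc5, Tap2 and Tapbpl.

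Of the 27 members, 23 passed the filter on low counts and were tested. H2-M1, H2-M2, H2-M11 and H2-Q2 did not, with at most 9 counts in any library. The non-classical gene H2-T24 was the only member called lower in RT_ICI, at an edgeR adjusted p under 0.05 over all genes, and no member was called higher. That is 1 of 23 members called lower, against 4.72% of all tested genes called lower, 4.46% called higher and 9.18% called in either direction. At an unadjusted p under 0.05, 2 of the 23 members passed, against 31.5% of all tested genes. The estimate lay below 0 for 15 members and above 0 for 8, with a median log2 fold change (RT_ICI over ICI) of -0.32 against 0.01 over all 16924 tested genes. The fold changes of the members were less precise than those of most genes, and this error includes the spread between libraries of a group. The median standard error (SE) of the members was 0.57 on the log2 scale against 0.23 over all genes, and 22 of the 23 exceeded the all-gene median. High counts did not prevent this: B2m, with 28637 to 69462 counts a library, had SE 0.40. A call missed at this precision does not show that a gene had the same level in both groups. The 3 libraries of a group did not overlap the 3 of the other for 2 of 23 members, H2-T24 and H2-K2, against 37.2% of all tested genes.

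**Figure D1:**
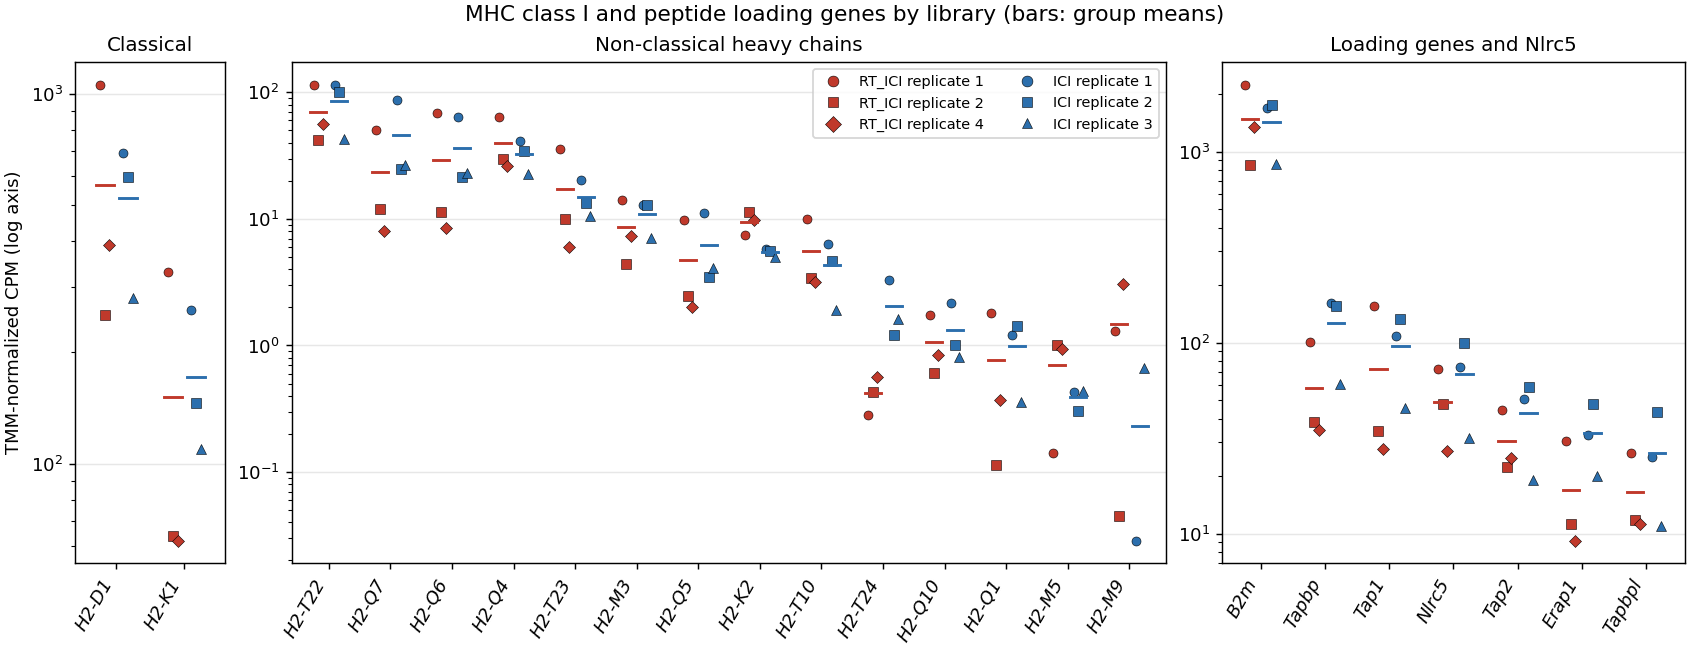
Level of each tested member in each library (TMM-normalized CPM, log axis), with RT_ICI in red left of ICI in blue, 1 marker shape for each replicate and bars at group means; the ICI replicate 2 value of 0 for H2-M9 is not drawn. H2-T24 lies wholly lower in RT_ICI and H2-K2 wholly higher, while RT_ICI replicate 1 lies above RT_ICI replicates 2 and 4 in 19 of the 23 members.

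The classical heavy chains carried most of the heavy chain RNA in both groups and were not called between them. H2-D1 (chr17:35262730-35267499) had 1058, 253 and 390 CPM in RT_ICI replicates 1, 2 and 4, against 693, 595 and 281 CPM in ICI replicates 1, 2 and 3. RT_ICI thus held both the highest and the lowest of the 6 libraries. The group means were 567 ± 431 CPM in RT_ICI and 523 ± 216 CPM in ICI (SD, n = 3 each). The log2 fold change of H2-D1 was 0.12 with SE 0.60 and adjusted p = 0.913, and its 95% interval ran from -1.35 to 1.58. Changes of more than 2-fold in either direction therefore lie inside the interval. H2-K1 (chr17:33996017-34000347) had 330, 63.6 and 62.0 CPM in RT_ICI and 261, 146 and 109 CPM in ICI. RT_ICI replicate 1 was again the highest of the 6, and the other RT_ICI libraries were below every ICI library. The log2 fold change of H2-K1 was -0.18 with SE 0.78, interval -2.12 to 1.77 and adjusted p = 0.898. In a bulk sample, fewer cells of a type and less RNA per cell cannot be told apart.

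Scaled per kilobase of transcript, H2-D1 gave 58.5% to 67.9% of all heavy chain signal in RT_ICI and 53.3% to 63.4% in ICI. The share of H2-K1 was 12.1% to 21.3% in RT_ICI and 17.4% to 23.3% in ICI. Among non-classical genes H2-T22 held the next share, 4.47% to 6.75% in RT_ICI and 5.60% to 7.32% in ICI. These ranges overlapped between the groups for each of the 3 genes.

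The T region held the called member. H2-T24 (chr17:36005695-36020560, minus strand), a little-studied heavy chain gene, had 0.284, 0.428 and 0.560 CPM in RT_ICI, against 3.31, 1.21 and 1.63 CPM in ICI. Every RT_ICI library was below every ICI library. The underlying counts were small, at 8, 19 and 12 in RT_ICI and 115, 48 and 78 in ICI. The means were 0.424 ± 0.138 CPM in RT_ICI and 2.05 ± 1.11 CPM in ICI (SD, n = 3 each), and the log2 fold change was -2.27 (SE 0.50, interval -3.42 to -1.12, adjusted p = 0.0382). The call was lost in 5 of the 6 fits with 1 library fewer. Leaving out RT_ICI replicate 1 kept it (adjusted p = 0.0405), while leaving out any other single library gave adjusted p = 0.0505 to 0.152 with log2 fold changes of -2.55 to -1.76. Over all genes, 0 were called lower without ICI replicate 1, ICI replicate 3 or RT_ICI replicate 2. The count was 16 without RT_ICI replicate 4 and 291 without ICI replicate 2, against 799 with all libraries. With a correction for transcript length and GC content the adjusted p of H2-T24 was 0.0489. H2-T24 is a minor transcript: per kilobase it averaged 0.194 CPM in RT_ICI and 0.939 CPM in ICI, against 270 and 249 CPM for H2-D1.

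The other T region genes did not follow H2-T24. H2-T23, which encodes Qa-1, the ligand of the inhibitory receptor CD94/NKG2A, had 35.8, 10.1 and 6.02 CPM in RT_ICI and 20.4, 13.4 and 10.5 CPM in ICI (log2 fold change 0.22, SE 0.67, adjusted p = 0.846). H2-T22, a ligand of some gamma delta T cell receptors, had 113, 41.8 and 56.4 CPM in RT_ICI and 115, 100 and 42.9 CPM in ICI (log2 fold change -0.28, SE 0.50). Its close relative H2-T10, annotated as a polymorphic pseudogene, averaged 5.55 ± 3.89 CPM in RT_ICI and 4.30 ± 2.21 CPM in ICI (log2 fold change 0.37, SE 0.57). All 3 overlapped between the groups. H2-T10 is at least 95% identical to other transcripts over 83.5% of its length and H2-T22 over 78.0%, so the split of reads between them is uncertain.

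No Q region gene was called among the 6 tested, against 9.18% of all tested genes called in either direction. H2-Q6 and H2-Q7 encode the Qa-2 antigens. H2-Q7 had 50.8, 12.01 and 8.07 CPM in RT_ICI and 86.5, 24.8 and 26.7 CPM in ICI (log2 fold change -0.96, SE 0.89, adjusted p = 0.499). H2-Q6 had 68.6, 11.3 and 8.49 CPM in RT_ICI and 64.3, 21.5 and 23.1 CPM in ICI (log2 fold change -0.30, SE 0.97, adjusted p = 0.858). Replicate 1 was the high library of its group in each case. H2-Q4 had 63.7, 29.7 and 26.0 CPM in RT_ICI and 41.6, 34.2 and 22.6 CPM in ICI (log2 fold change 0.28, SE 0.38). The lower members H2-Q5, H2-Q1 and H2-Q10 had log2 fold changes of -0.40, -0.39 and -0.32 with SE of 0.72, 0.94 and 0.54. H2-Q10 encodes a secreted heavy chain best known from liver, and it averaged 1.06 ± 0.60 CPM in RT_ICI and 1.33 ± 0.73 CPM in ICI. At least 20% of the transcript is near-identical to another gene for 8 members, H2-Q1, H2-Q4, H2-Q5, H2-Q6, H2-Q7, H2-T10, H2-T22 and H2-T23. Reads of these genes may have been shared between copies, and H2-T24 and H2-K1 are not among them. H2-K2, at 18.3%, fell just below that cut, and 10% of the H2-Q1 transcript is near-identical to H2-K1.

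In the M region, H2-M3, which presents formylated peptides of bacteria and mitochondria, had 14.2, 4.39 and 7.33 CPM in RT_ICI and 12.995, 12.98 and 7.004 CPM in ICI (log2 fold change -0.35, SE 0.44). H2-M5 had a log2 fold change of 0.83 with SE 0.65. H2-M9, of the family expressed in vomeronasal neurons, had 1.31, 0.0451 and 3.08 CPM in RT_ICI and 0.0288, 0 and 0.669 CPM in ICI (log2 fold change 2.55, SE 1.65, adjusted p = 0.330). Neither low-level gene separated the groups. H2-K2 (chr17:33974659-33978827, minus strand), annotated as a transcribed pseudogene next to H2-K1, was the member nearest to a call of a higher level. It had 7.41, 11.3 and 9.80 CPM in RT_ICI, against 5.75, 5.61 and 4.997 CPM in ICI. Every RT_ICI library lay above every ICI library (log2 fold change 0.80, SE 0.22, interval 0.29 to 1.32, adjusted p = 0.0593). DESeq2 called it (adjusted p = 0.00775), and the length and GC correction moved it to 0.48 with adjusted p = 0.229. H2-K2 was lowest in RT_ICI replicate 1 within its group, where H2-K1 was highest.

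**Figure D2:**
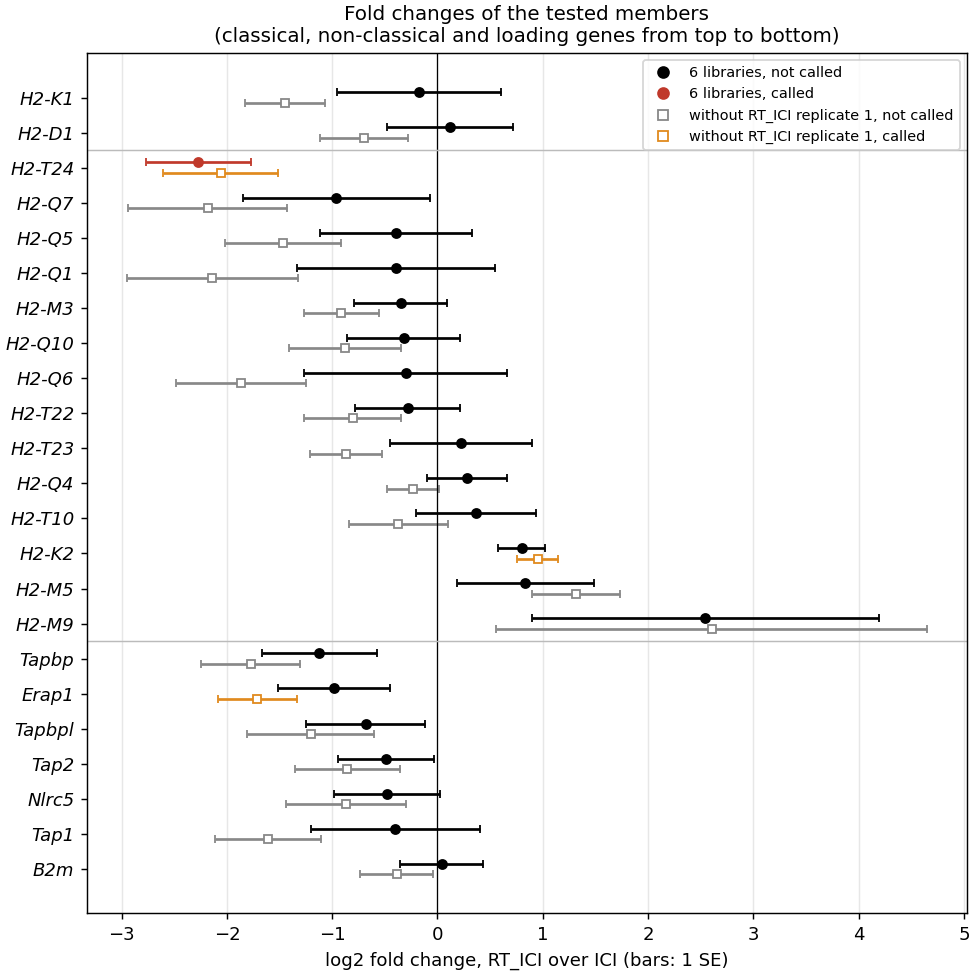
Log2 fold change (RT_ICI over ICI) of each tested member with bars of 1 SE, from all 6 libraries (filled points) and without RT_ICI replicate 1 (open squares), with called members coloured. With 6 libraries only H2-T24 was called. Without RT_ICI replicate 1, the highest RT_ICI library in 19 of the 23 members, H2-T24 and Erap1 were called lower and H2-K2 higher.

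None of the 7 genes of the loading group was called, against 9.18% of all tested genes called in either direction. The estimate lay below 0 for 6 of the 7. B2m, the light chain gene on chromosome 2, was the most abundant member. It had 2234, 848 and 1337 CPM in RT_ICI, against 1687, 1748 and 865 CPM in ICI (log2 fold change 0.04, SE 0.40, interval -0.90 to 0.97, adjusted p = 0.958). The groups overlapped across most of their range. Tapbp, which encodes tapasin, had 100, 38.4 and 35.0 CPM in RT_ICI and 161, 156 and 60.9 CPM in ICI. Its log2 fold change was the lowest of the group, -1.12 with SE 0.55, interval -2.46 to 0.22 and adjusted p = 0.219. The highest RT_ICI library of Tapbp lay above only the lowest ICI library. Of the exon bases of Tapbp, 29.0% overlap exons of other genes, as do 29.4% of those of H2-T22 and 27.1% of those of H2-T10. Whether counting used strand is not given in the sources used here. Tapbpl, a second peptide editor related to tapasin, had 26.6, 11.8 and 11.2 CPM in RT_ICI and 25.2, 43.4 and 10.96 CPM in ICI (log2 fold change -0.68, SE 0.57).

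The peptide transporter has 2 subunits. Tap1 had 155, 34.5 and 27.7 CPM in RT_ICI and 108, 133 and 45.2 CPM in ICI (log2 fold change -0.40, SE 0.80, adjusted p = 0.763). Tap2 had 44.3, 22.3 and 24.8 CPM in RT_ICI and 50.6, 58.5 and 19.2 CPM in ICI (log2 fold change -0.49, SE 0.46, adjusted p = 0.496). RT_ICI replicate 1 was the highest of all 6 libraries for Tap1 and not for Tap2. Erap1, the trimming peptidase, had 30.4, 11.2 and 9.19 CPM in RT_ICI and 33.0, 47.5 and 20.01 CPM in ICI (log2 fold change -0.98, SE 0.53, adjusted p = 0.254). For Erap1, RT_ICI replicates 2 and 4 lay below every ICI library. Nlrc5, the transactivator, had 72.4, 47.7 and 27.0 CPM in RT_ICI and 74.5, 98.9 and 31.7 CPM in ICI (log2 fold change -0.48, SE 0.51, adjusted p = 0.550).

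The same libraries were high or low across most members. RT_ICI replicate 1 was the highest of the RT_ICI libraries in 19 of 23 members, against 39.3% of all tested genes. ICI replicate 3 was the lowest of the ICI libraries in 17 of 23, against 36.0% of all tested genes. These are descriptions of linked genes and not tests. The summed classical level was 1389, 317 and 452 CPM in RT_ICI and 954, 741 and 390 CPM in ICI. The summed non-classical level was 379, 129 and 133 CPM in RT_ICI and 371, 225 and 148 CPM in ICI. The summed loading level was 2663, 1014 and 1472 CPM in RT_ICI and 2140, 2285 and 1053 CPM in ICI. In each sum, RT_ICI replicate 1 and ICI replicates 1 and 2 stood above RT_ICI replicates 2 and 4 and ICI replicate 3.

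The counts were taken again without RT_ICI replicate 1, which leaves 2 RT_ICI libraries. That library was the highest RT_ICI library in 19 of 23 members, so leaving it out lowers most estimates by construction. H2-T24 and Erap1 were then called lower and H2-K2 higher, or 2 of 23 members lower against 8.80% of genes and 1 of 23 higher against 8.91%. Of the members, 20 then had an estimate below 0, with a median log2 fold change of -0.88. Erap1 was at -1.71 (SE 0.37, adjusted p = 0.0321) and H2-K1 at -1.45 (SE 0.38, adjusted p = 0.0535). H2-D1 moved to -0.70 (SE 0.42) and B2m to -0.39 (SE 0.35), the opposite sign to that with all libraries. With a length and GC correction in addition, the members called lower were H2-K1, Tapbp and H2-T24, 3 of 23 against 7.36% of genes, and none was called higher against 6.73%. Erap1 was then at -1.51 with adjusted p = 0.0680. Without that correction, leaving out ICI replicate 1, 2 or 3 instead gave median log2 fold changes of 0.16, -0.14 and -0.60. Leaving out RT_ICI replicate 2 or 4 gave medians of -0.0014 and -0.0334.

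Ratios between members within a library do not depend on library scaling, but they can carry a trend with transcript length. Over all tested genes the median log2 fold change was 0.37 in the shortest length decile and -0.26 in the longest. The ratios below were chosen after the values were seen, so they carry no test. Tapbp over H2-K1 plus H2-D1, per kilobase, was 0.0509, 0.0860 and 0.0553 in RT_ICI, against 0.119, 0.149 and 0.110 in ICI. The groups did not overlap in this ratio. They did not overlap either in the count of H2-Q7 over that of H2-Q6, at 0.741, 1.06 and 0.951 in RT_ICI against 1.35, 1.15 and 1.16 in ICI. Nor did they in the count of H2-T22 over that of H2-T10, at 11.3, 12.2 and 17.8 in RT_ICI against 18.2, 21.4 and 22.3 in ICI. Both of these pairs have near-identical stretches, as given above. The longest transcripts of H2-Q7 and H2-Q6 are 4209 and 2085 bases. Their log2 fold changes were -0.96 and -0.30, and -0.95 and -0.55 with the length and GC correction. H2-K1 plus H2-D1 over B2m was 0.262, 0.156 and 0.141 in RT_ICI and 0.239, 0.178 and 0.191 in ICI, with overlap. H2-K1 over H2-D1 was 0.350, 0.282 and 0.179 in RT_ICI and 0.422, 0.275 and 0.437 in ICI, with overlap. Tap1 over Tap2 was 3.08, 1.36 and 0.983 in RT_ICI and 1.88, 2.00 and 2.08 in ICI, so the ICI libraries lay close together inside the RT_ICI range.

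**Figure D3:**
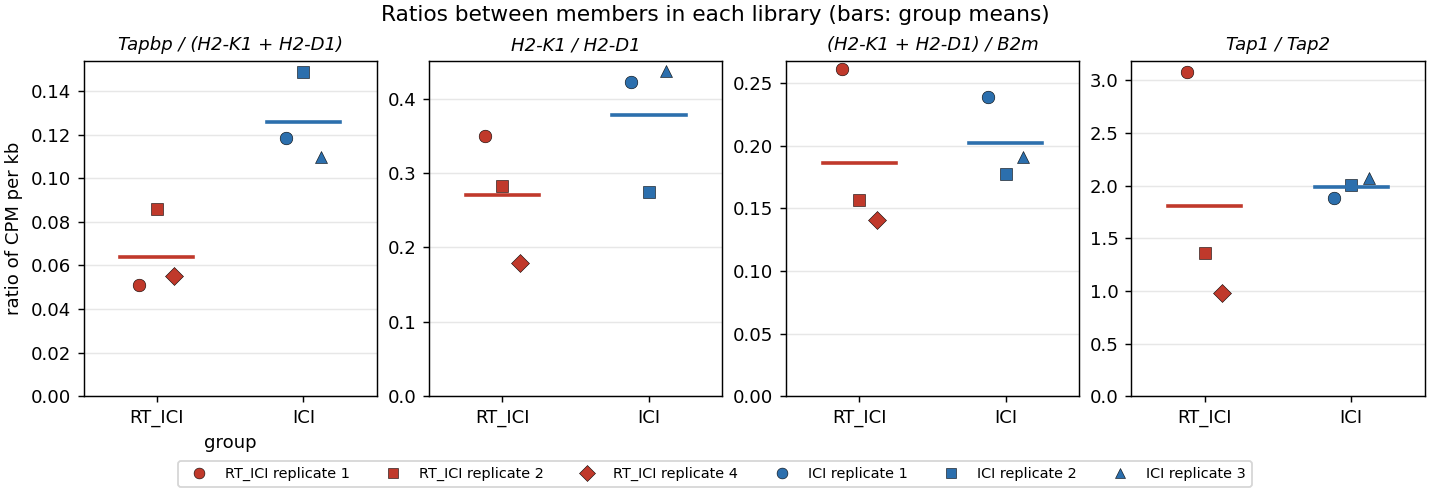
Ratios of CPM per kb between members in each library, with RT_ICI in red left of ICI in blue, 1 marker shape for each replicate and bars at group means. Tapbp relative to the classical heavy chains is below 0.09 in the 3 RT_ICI libraries and above 0.10 in the 3 ICI libraries, while the other ratios drawn overlap.

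Genes next to the members in the pathway were counted in lists. Among all tested genes, 4.72% were called lower and 4.46% higher, or 9.18% in either direction. In the immunoproteasome list, the interferon-inducible subunits that favour class I peptides, 0 of 5 genes were called, with a median log2 fold change of -0.11 against 0.01 over all genes. Psme1, a subunit of the PA28 activator and the list's most abundant gene, was at 0.01 (SE 0.38, adjusted p = 0.990). Psmb9 had 77.8, 13.1 and 14.6 CPM in RT_ICI and 40.5, 72.6 and 13.2 CPM in ICI (log2 fold change -0.26, SE 0.96). Psmb9 showed the same high and low libraries as the class I genes. Of 4 constitutive counterparts, 1 was called higher: Psmb6 had 151, 154 and 149 CPM in RT_ICI and 86.4, 119 and 97.7 CPM in ICI (log2 fold change 0.59, SE 0.14, adjusted p = 0.0455). That call was lost with the length and GC correction (log2 fold change 0.35, adjusted p = 0.141). The 4 counterparts had a median log2 fold change of 0.06, with 2 estimates below 0 and 2 above. Psme3 was at -0.57 (SE 0.15, adjusted p = 0.0555).

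Of 10 other genes of the loading complex and of peptide trimming, 2 were called lower and none higher (median log2 fold change -0.37). The shares over all tested genes were 4.72% lower and 4.46% higher. Canx, which encodes calnexin, the chaperone that first holds new heavy chains, had 387, 277 and 388 CPM in RT_ICI, against 688, 615 and 777 CPM in ICI. Every RT_ICI library was below every ICI library (log2 fold change -0.98, SE 0.18, adjusted p = 0.0292). Groups without overlap, in either direction, occurred for 37.2% of all tested genes. Lnpep, an endosomal trimming peptidase, had 42.6, 44.0 and 44.1 CPM in RT_ICI and 69.5, 61.5 and 58.0 CPM in ICI (log2 fold change -0.53, SE 0.12, adjusted p = 0.0387). With the length and GC correction Lnpep was at -0.31 with adjusted p = 0.147, and Canx at -0.81 with adjusted p = 0.0475. Hspa5, the chaperone BiP, was at -0.52 (SE 0.26, adjusted p = 0.218). Calr, the calreticulin gene, was at -0.32 (SE 0.16, adjusted p = 0.211). Calnexin also folds many proteins other than class I.

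Of 14 factors that act on class I promoters, 3 were called lower and none higher, with a median log2 fold change of -0.47. Of all tested genes, 4.72% were called lower and 4.46% higher. Creb1, a factor of the CRE-like box, averaged 33.6 ± 7.05 CPM in RT_ICI and 59.2 ± 2.78 CPM in ICI (SD, n = 3 each; log2 fold change -0.82, adjusted p = 0.0346). Irf9, the DNA-binding part of the type I interferon complex, had 35.5, 39.6 and 38.6 CPM in RT_ICI and 70.5, 50.7 and 53.8 CPM in ICI (log2 fold change -0.62, adjusted p = 0.0454). Nfkb1, the p50 subunit of NF-kB, had 33.4, 34.3 and 34.2 CPM in RT_ICI and 47.5, 43.7 and 48.1 CPM in ICI (log2 fold change -0.45, adjusted p = 0.0484). The groups did not overlap for any of the 3, nor for 37.2% of all tested genes. With the length and GC correction all 3 calls were lost: Creb1 was at -0.57 (adjusted p = 0.0894), Irf9 at -0.59 (adjusted p = 0.0580) and Nfkb1 at -0.32 (adjusted p = 0.124).

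No interferon target was called in either list. All 11 tested interferon gamma targets had estimates below 0 (median log2 fold change -1.20), as had all 11 type I interferon targets (median -1.66). These are 22 linked genes, and 0 of 22 passed the test, against 9.18% of all tested genes called in either direction. Estimates lay below 0 for 8287 of all 16924 tested genes. The type I targets summed to 554, 225 and 417 CPM in RT_ICI and 1615, 775 and 521 CPM in ICI. ICI replicate 1 thus stood far above the other libraries, and the groups overlapped. The most abundant interferon gamma targets, the chemokine gene Cxcl10 and the GTPase gene Irgm1, were at -0.77 (SE 0.29, adjusted p = 0.123) and -0.90 (SE 0.68, adjusted p = 0.405). Igtp, an interferon-induced GTPase, had 113, 26.9 and 17.5 CPM in RT_ICI and 154, 298 and 25.9 CPM in ICI (log2 fold change -1.60, SE 1.13, adjusted p = 0.377). Among ligands and receptors 0 of 10 tested genes were called (median -0.21). Ifng, named here after its values were seen, did not pass the filter, with 35, 0 and 2 counts in RT_ICI and 8, 155 and 0 counts in ICI.

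Each list below is to be read against 9.18% of all tested genes called in either direction. Of 7 class II genes tested, 0 were called (median -0.06). Cd74, the class II invariant chain, had 239, 15.9 and 29.3 CPM in RT_ICI and 109, 176 and 32.0 CPM in ICI. Of the 6 class I-like genes outside the H2 regions 0 were called (median 0.58). Azgp1, a secreted class I-like glycoprotein, had 64.3, 87.1 and 100 CPM in RT_ICI and 17.8, 48.1 and 29.0 CPM in ICI (log2 fold change 1.41, SE 0.36, adjusted p = 0.0552). Its RT_ICI libraries all lay above its ICI libraries, and 37.2% of all tested genes had no overlap in either direction. Of 7 cross-presentation genes tested 0 were called (median -0.47), and of 6 receptors that bind class I 0 were called (median -0.87). Pirb, an inhibitory receptor of myeloid and B cells, had 10.7, 5.39 and 6.02 CPM in RT_ICI and 4.31, 4.66 and 3.95 CPM in ICI, with no overlap (log2 fold change 0.78, SE 0.30, adjusted p = 0.126). Cd8a, the co-receptor of class I restricted T cells, had 2.09, 0.361 and 0.280 CPM in RT_ICI and 11.6, 4.58 and 0.585 CPM in ICI (log2 fold change -2.61, SE 1.23, adjusted p = 0.203).

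**Figure D4:**
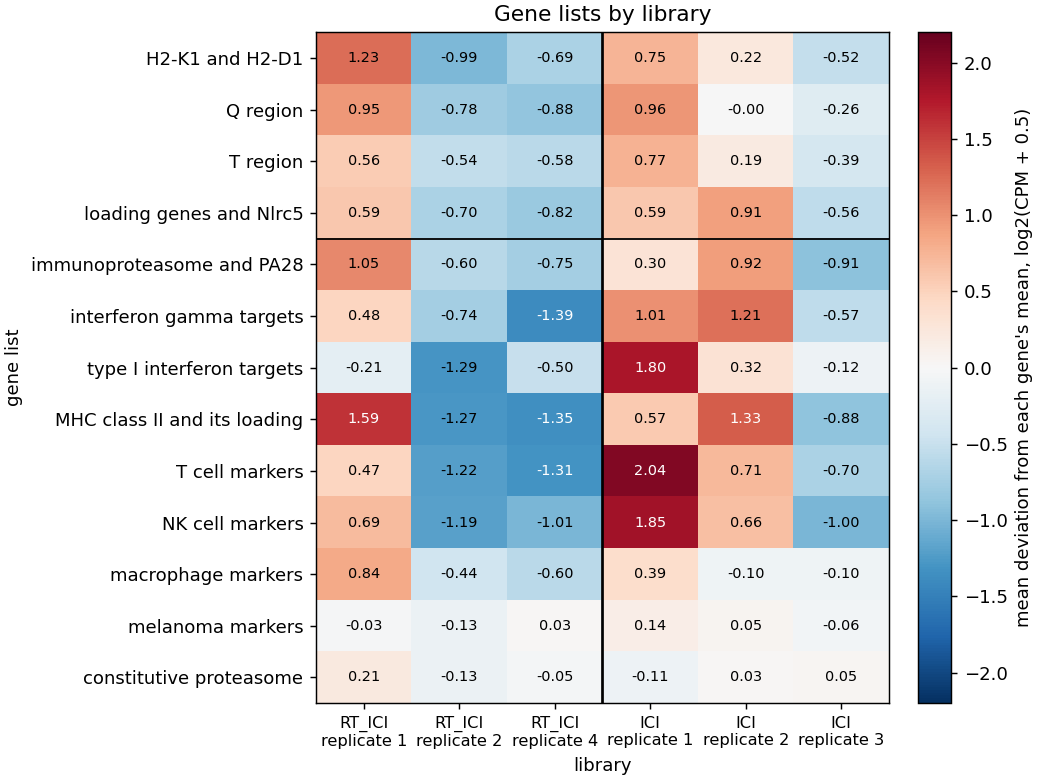
Mean deviation of each gene list in each library from each gene's mean over the 6 libraries, on log2(CPM + 0.5), with the 3 RT_ICI libraries left of the 3 ICI libraries and red above the mean. For the classical genes the values are 1.23, -0.99 and -0.69 in RT_ICI and 0.75, 0.22 and -0.52 in ICI, and the loading, immunoproteasome and class II lists have the same 3 high and 3 low libraries.

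Markers of immune cells differed between the same libraries. The 7 T cell markers summed to 15.4, 2.10 and 1.91 CPM in RT_ICI and 53.6, 19.2 and 4.87 CPM in ICI, and 0 of 7 were called. The 6 NK cell markers summed to 10.5, 0.789 and 1.07 CPM in RT_ICI and 29.4, 9.71 and 1.19 CPM in ICI, with 0 of 4 tested genes called, and Ncr1 at 0 in every library except ICI replicate 3, which had 2 counts. The 5 leukocyte markers summed to 124, 28.5 and 30.1 CPM in RT_ICI and 175, 76.1 and 63.1 CPM in ICI, with 0 of 5 called. RT_ICI replicate 1 was the highest RT_ICI library and ICI replicate 3 the lowest ICI library in all 3 sums. The macrophage and monocyte markers, which mark cells that also carry class I, summed to 279, 129 and 116 CPM in RT_ICI and 163, 133 and 139 CPM in ICI, with 0 of 8 called. None was called among the tested markers of B cells (0 of 2), dendritic cells (0 of 3), fibroblasts (0 of 6), endothelium (0 of 6), red cells (0 of 5) and skeletal muscle (0 of 5), and no keratinocyte marker passed the filter. Of the adipocyte markers 1 of 5 was called higher, Plin4, a lipid droplet protein (log2 fold change 3.79, SE 0.82, adjusted p = 0.0456). Plin4 was at 3.73 with adjusted p = 0.0591 under the length and GC correction, and at 3.62 with adjusted p = 0.0763 without RT_ICI replicate 1. Of the melanoma markers 1 of 7 was called higher, Mlana, a melanosome protein (log2 fold change 0.75, SE 0.16, adjusted p = 0.0376). Mlana was at 0.59 with adjusted p = 0.0672 under the length and GC correction. Of the 7 melanoma markers, 4 had estimates below 0 and 3 above, with a median log2 fold change of -0.13. Over all tested genes, 4.72% were called lower and 4.46% higher, or 9.18% in either direction. The summed adipocyte markers were 53.3 to 77.1 CPM in RT_ICI and 0.654 to 24.5 CPM in ICI, which did not overlap. Summed red cell markers were 109 to 454 CPM in RT_ICI and 226 to 4478 CPM in ICI, highest in ICI replicate 3. The part of any of these cells in the class I values was not tested.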

How the data were processed

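Bulk RNA-seq was deposited by the authors as whole-number counts per gene for 6 libraries, 3 in each group. HISAT2, GRCm38 and mm10 are named per the submitters' processing notes, while no counting tool, annotation release, strand setting or version is named there. Groups followed the labels. The members, gene lists and tests were chosen with earlier results of these data known.

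Counts were filtered with filterByExpr, scaled by TMM and compared by edgeR 4.0.16 (R 4.3.3) with the robust quasi-likelihood test on group alone, over 16924 genes. Calls required an adjusted p (Benjamini-Hochberg) under 0.05. The SE of a log2 fold change was taken from its F statistic, with a 95% interval. Every member was accounted for, tested members were named, and those called or averaging at least 10 CPM were given by library. Each of the 11 pathway lists allowed up to 4 names, called genes first and then those of highest level, and not every allowed name was used. A further 13 lists held cell markers. Positions, transcript lengths and exon overlaps came from GENCODE M21 (GRCm38), with near-identity by blastn 2.17.0 at 95% over at least 200 bases, and 33888 of 34665 rows matched. Library deviations used log2(CPM + 0.5). Alternatives used RLE and upper-quartile scaling, other filters, DESeq2 1.42.0, limma-voom 3.58.1, a replicate block, a length and GC correction by mgcv 1.9.3, and leaving out each library. The edgeR code was tested on simulated counts. No pair of libraries agreed within sampling noise, with a chi-square per degree of freedom of at least 36.3.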

Additional observations from a re-analysis of the deposited data

How the results depend on the processing

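H2-T24 was the 1 member called lower under RLE, upper-quartile scaling, both other filters, limma-voom, DESeq2, non-robust fitting, the length and GC correction and leaving out mitochondrial genes. The count was 0 with the replicate block, 0 with block and length and GC correction together, 0 to 2 leaving out single libraries, and 3 with the length and GC correction without RT_ICI replicate 1, a setting added after seeing the data. The members called higher were 1 under upper-quartile scaling, the 1 CPM filter, DESeq2 and an adjusted p under 0.1 (H2-K2 each time). They were 1 under the replicate block (H2-M9), and 0 to 1 leaving out libraries. The H2-M9 call rests on 37 and 2 counts in RT_ICI replicates 1 and 2 against 1 and 0 in ICI replicates 1 and 2. The 66 counts of RT_ICI replicate 4 and the 32 of ICI replicate 3 do not enter the block's contrast.

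Over all genes, 799 were called lower and 754 higher. Upper-quartile scaling gave 497 lower and 1046 higher, no filter gave 1507 lower, DESeq2 gave 1703 lower and 1746 higher, and an adjusted p under 0.1 gave 1833 lower and 1802 higher. The length and GC correction gave 341 lower and 259 higher, and without RT_ICI replicate 1 it gave 1292 and 1181. Leaving out single libraries gave 0 to 1545 lower and 0 to 1564 higher.

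Numbers 1 and 2 occur in both groups, but the labels do not pair them. Same-numbered deviations correlated at 0.353 and 0.0909, which are 2 pairs. Pairs of unlike number ran from -0.32 to 0.27, the highest being RT_ICI replicate 4 with ICI replicate 3. ICI replicate 3 and RT_ICI replicate 4 have no same-numbered library, so the replicate block fits them exactly. Its group contrast therefore rests on replicates 1 and 2 alone, and it is not an alternative fit of all 6 libraries. The block gave 245 lower and 400 higher (128 and 207 with the length and GC correction), and put H2-T24 at -2.44 with adjusted p = 0.0601.

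Signs turned for members near 0, and the cause was not tested. H2-D1 was at -0.0453 with limma-voom, -0.31 with the block, -0.13 with the length and GC correction, -0.53 with both, and -0.88 with the added setting. B2m was at -0.0306 with no filter, -0.32 with the block, -0.0657 with the correction, -0.43 with both, and -0.46 with the added setting. H2-T23 was at -0.0924 with limma-voom and -0.97 with the added setting, which also put H2-Q4 at -0.34 and H2-T10 at -0.35. Leaving out single libraries gave -0.70 to 0.48 for H2-D1, -1.45 to 0.24 for H2-K1, -0.39 to 0.33 for B2m, -0.23 to 0.51 for H2-Q4, -1.46 to 0.30 for H2-Q5, -1.86 to 0.39 for H2-Q6, -2.14 to 0.17 for H2-Q1, -0.88 to 0.20 for H2-Q10, -0.37 to 0.74 for H2-T10 and -0.87 to 0.63 for H2-T23. Low counts limit H2-T24, which had 8 to 115 a library.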
